A study of Homo sapiens with 33 samples.

Results

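ABEmax, an adenine base editor, was compared with the bare Cas9 nickase (nCas9) in cells that received the same guide RNA, one directed at the gene RNF2. The comparison takes the 3 ABEmax and the 3 nCas9 libraries with that guide, 6 of the 33 RNA-seq libraries of the study, and all genes of the count table. The study sequenced total RNA from HEK293T, an established human embryonic kidney line, after transfection with a base editor or a control. The editor plasmids also encode P2A-EGFP or variants of it, and GFP-positive cells were sorted 36 to 40 h later. Plates received 37.5 µg of editor plasmid and 12.5 µg of guide plasmid, and both groups share the guide, the GFP sort and the nickase that ABEmax also contains. The labels class ABEmax as an A-to-G editor and nCas9 as a negative control. Where they bear on the comparison, 4 other kinds of library are used: ABEmax and nCas9 with a guide to HEKsite2, miniABEmax-V82G with the RNF2 guide, and GFP with no guide. Target-AID, a C-to-T editor, and SpACE, an editor of both bases, are set beside ABEmax for single genes only.

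ABEmax carries an adenosine deaminase derived from the bacterial tRNA-modifying enzyme TadA, and this class of editor is known to act on RNA as well as on DNA. miniABEmax-V82G is a shortened form with a substitution made to lower editing of RNA. A pair of stress programmes of human cells recur in the results. In the heat shock response, unfolded protein in the cytosol frees HSF1, which binds heat shock elements and turns on the HSP70 chaperones, their J-domain partners, HSP90 and the small heat shock proteins. In the integrated stress response, kinases that phosphorylate eIF2alpha favour translation of ATF4, which with C/EBP partners turns on genes for amino acid synthesis, amino acid uptake and tRNA charging.

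Total counts were 8034974, 8116856 and 7419401 in the ABEmax libraries and 8462209, 8039263 and 7651933 in the nCas9 libraries, within the range of 6790209 to 11200406 over the study. The table holds 26475 genes, of which 14613 passed the filter on low counts and were tested. All 12 genes listed as expressed in HEK293T had counts, with a summed level of 802 to 857 CPM in ABEmax and 888 to 944 CPM in nCas9, and the marker lists of other cell types were not all near 0. Summed levels in ABEmax and nCas9 were at most 3.06 CPM for liver, 9.6 CPM for erythroid, 19.7 CPM for fibroblast and 141 CPM for leukocyte markers, the last mostly LCP1. Placental hormone markers, mostly CSH2, summed to 1940 to 2160 CPM in ABEmax and 1830 to 2120 CPM in nCas9, and the part of these genes in the results was not tested. CPM, a count scaled to the depth of its library, is not divided by gene length, so it compares libraries and not genes. In a bulk sample, fewer cells that use a gene and less of its RNA per cell cannot be told apart.

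RNF2, the E3 ubiquitin ligase subunit of Polycomb repressive complex 1 and the gene the guide is directed at (GRCh38 chromosome 1, 185045364 to 185102608), was at 42.2, 36.2 and 35.3 CPM in ABEmax and at 34.6, 42.0 and 33.2 CPM in nCas9. The groups overlapped, and the log2 fold change of ABEmax over nCas9 was 0.05 ± 0.088 (SE; edgeR's quasi-likelihood test with Benjamini-Hochberg adjustment, adjusted p = 0.771). Both groups were lower than their counterparts with the HEKsite2 guide. The RNF2 guide gave 0.85 less than the HEKsite2 guide on the log2 scale in ABEmax (log2 fold change -0.85 ± 0.083, adjusted p = 2.13e-09) and 0.81 less in nCas9 (-0.81 ± 0.0828, adjusted p = 1.88e-08). Against GFP, RNF2 was at -1.06 in ABEmax (adjusted p = 5.17e-14) and at -1.11 in nCas9 (adjusted p = 4.62e-14). Its level was 46.3, 46.2 and 51.0 CPM in miniABEmax-V82G, against which ABEmax was 0.34 lower (log2 fold change -0.34, adjusted p = 0.0375). With the same guide it was at 69.8, 70.3 and 61.8 CPM in Target-AID and 64.4, 62.1 and 60.5 CPM in SpACE, and ABEmax was below both (-0.83, adjusted p = 1.09e-10, and -0.72, adjusted p = 4.34e-08). The closest relative, RING1, was at 34.1, 35.5 and 32.9 CPM in ABEmax and 35.7, 36.4 and 33.6 CPM in nCas9, and BMI1, a partner that stimulates the ligase, was at 4.29, 5.19 and 4.75 CPM in ABEmax and 5.80, 3.62 and 4.48 CPM in nCas9. Neither passed the test.

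Rises and falls were ranked among called genes with a mean of at least 1 log2 CPM, no clone, LOC or antisense symbol, and groups that did not overlap. Genes below that level, some with larger log2 fold changes, are given further down. Within these limits the 12 largest rises held 3 heat shock genes and 9 other genes that were low in nCas9, at most 16.4 CPM in any library. Many other chaperone genes and ATF4-pathway genes rose by less. The falls were smaller and included histone, metabolic and ribosomal genes, whose counts of calls depended on single libraries. Those lists were chosen with earlier results known and hold only part of the falls. Of the 14613 genes tested, 1632 (11.2%) passed an adjusted p of 0.05, 951 of them higher in ABEmax (6.51%) and 681 lower (4.66%). Most changes were modest: 83.9% of the called genes changed by less than 1.5-fold. The median log2 fold change was 0.33 among the genes called higher and -0.30 among those called lower, beside a median of -0.00324 over all tested genes. At 2-fold or more, 85 genes were higher and 17 lower. The 3 ABEmax libraries lay above all 3 nCas9 libraries for 15.4% of tested genes and below them for 14.2%. Leaving out nCas9 replicate 2 left 827 called genes and leaving out ABEmax replicate 3 left 1086, of which 809 and 971 were among the 1632. With GFP in place of nCas9 the count was 7249.

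**Figure D1:**
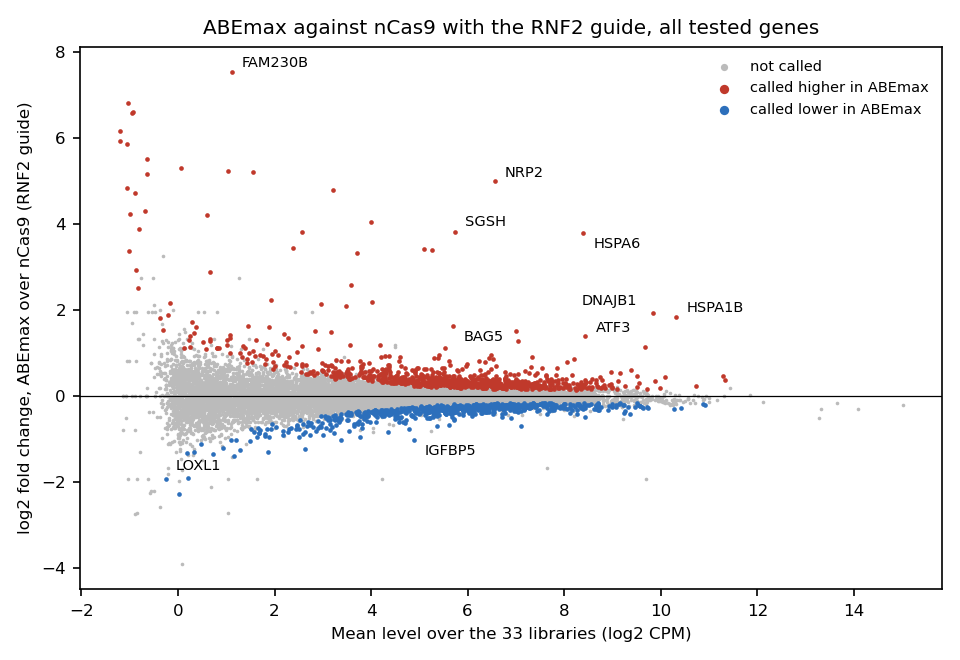
Each point is 1 of the 14613 tested genes, with its mean level over the 33 libraries (log2 CPM) on the horizontal axis and the log2 fold change of ABEmax over nCas9 with the RNF2 guide on the vertical axis. Red points are the 951 genes called higher in ABEmax and blue points the 681 called lower at an adjusted p under 0.05. The rises reach further from 0 than the falls, and HSPA6, NRP2 and SGSH stand far above the body of genes at their level.

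The HSP70 and HSP110 chaperones rose as a group, with 7 of 17 tested members called higher against 6.51% of all genes, and a median log2 fold change of 0.31. HSPA6, a strictly heat-inducible HSP70, was at 164, 169 and 170 CPM in ABEmax and at 11.8, 11.5 and 13.3 CPM in nCas9. The ABEmax libraries lay within a few percent of each other and far above the nCas9 libraries (log2 fold change 3.78 ± 0.145, adjusted p = 3.18e-23). HSPA1B, the main inducible HSP70, was at 976, 1021 and 1019 CPM in ABEmax and 273, 278 and 288 CPM in nCas9 (1.85 ± 0.0612, adjusted p = 2.20e-25), again with no overlap. HSPH1, an HSP110 that exchanges nucleotide on HSP70, was at 846, 811 and 806 CPM in ABEmax and 411, 348 and 364 CPM in nCas9 (1.13 ± 0.0776, adjusted p = 1.36e-14). HSPA1A (2.24, adjusted p = 1.77e-05) and HSPA7 also rose, but HSPA1A is nearly identical to HSPA1B, and HSPA7 is a copy of HSPA6, so how reads were divided within each pair is uncertain. HSPA4L, a testis-rich HSP110 relative (0.45, adjusted p = 8.72e-05), and the mitochondrial HSPA9 (0.30, adjusted p = 0.000698) rose less. The count stayed at 7 or 8 with any of the 6 libraries left out.

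The J-domain proteins, which hand clients to HSP70 and start its ATPase, had 7 of 39 tested members higher and 1 lower. Over all genes 6.51% were higher and 4.66% lower, and the median of the list was 0.06. DNAJB1, the partner of inducible HSP70, was at 744, 757 and 750 CPM in ABEmax and 207, 194 and 190 CPM in nCas9 (1.93 ± 0.0811, adjusted p = 8.30e-22). DNAJB4, DNAJB5 and DNAJB6 rose by 0.69, 0.70 and 0.65 on the log2 scale, and DNAJA1, an abundant HSP70 partner, by 0.54, with adjusted p of 0.000264 or below for all of them. DNAJC22 was the member that fell, at 4.78, 5.07 and 5.27 CPM in ABEmax and 8.35, 8.73 and 11 CPM in nCas9 (-0.89 ± 0.168, adjusted p = 0.000335), and against GFP it did not pass (-0.13, adjusted p = 0.571).

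Among HSP90 and its co-chaperones 8 of 22 rose, against 6.51% of all genes, with a median of 0.18. The stress-inducible HSP90AA1 was at 2173, 2132 and 1984 CPM in ABEmax and 1578, 1577 and 1430 CPM in nCas9 (0.46 ± 0.0649, adjusted p = 3.40e-06), and the constitutive HSP90AB1 rose by 0.37 (adjusted p = 0.000298). Against GFP, HSP90AA1 ran the other way (-0.27, adjusted p = 0.00067), and nCas9 itself was 0.72 below GFP on the log2 scale (-0.72, adjusted p = 1.48e-11). CHORDC1, a zinc-binding HSP90 partner, was at 311, 314 and 288 CPM in ABEmax and 173, 165 and 164 CPM in nCas9 (0.86 ± 0.0691, adjusted p = 1.54e-12). STIP1, which bridges HSP70 and HSP90, rose by 0.61, the prolyl isomerase PPID by 0.47 and SUGT1 by 0.39.

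The small heat shock and BAG proteins had the highest share of calls among the chaperone lists, 6 of 10 tested members higher and 1 lower. Their median was 0.58, and the shares of all genes were 6.51% higher and 4.66% lower. BAG3, which links HSP70 to small heat shock proteins and to autophagy, was at 149, 145 and 150 CPM in ABEmax and 48.6, 51.5 and 55.7 CPM in nCas9 (1.51 ± 0.0814, adjusted p = 4.95e-18). BAG5, a nucleotide exchange factor of HSP70, was at 264, 248 and 283 CPM in ABEmax and 116, 107 and 104 CPM in nCas9 (1.28 ± 0.0697, adjusted p = 6.12e-18). The small heat shock proteins HSPB1 (0.82), HSPB8 (1.44) and CRYAB (3.45, adjusted p = 1.22e-06) rose too, CRYAB at 4.66, 4.95 and 4.24 CPM in ABEmax and 0.348, 0.249 and 0.641 CPM in nCas9. BAG2 rose by 0.34 and BAG4 fell by 0.26. Of 17 chaperonins, which fold proteins in closed barrels, 3 rose: TCP1 (0.35), the mitochondrial HSPD1 (0.24, adjusted p = 0.00596) and CCT4 (0.19, adjusted p = 0.0366). CCT4 was no longer called without any one of 5 libraries, namely ABEmax replicates 1 and 2 and all 3 nCas9 replicates, with an adjusted p reaching 0.12.

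Of 4 tested heat shock factor genes, HSF2 was called higher (0.23, adjusted p = 0.00728), while HSF1 (-0.24, adjusted p = 0.0359) and HSBP1, a small protein that binds HSF1 and dampens it (-0.32, adjusted p = 0.00255), were called lower. Over all genes 6.51% were called higher and 4.66% lower. HSF1 was at 57.5, 56.6 and 56.8 CPM in ABEmax and 59.0, 64.6 and 77.9 CPM in nCas9, and its call rested on nCas9 replicate 3, the highest library: without it the log2 fold change was -0.12 (adjusted p = 0.356). HSF1 also was no longer called without any of the ABEmax replicates or nCas9 replicate 2, and HSF2 was no longer called without nCas9 replicate 3 (adjusted p = 0.0548).

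Promoters of the called chaperone genes were searched for the heat shock element, inverted repeats of the unit that HSF1 binds as a trimer, spelled GAA, any 2 bases, TTC, any 2 bases and GAA, and read on both strands. The RefSeq promoter table (GRCh38.p14, 250 bases before to 50 after each start) held the element in 172 of 35116 promoters (0.49%) and in 34 of 10654 promoters of tested genes (0.319%). For tested genes only the first promoter listed under each symbol was read, so any other starts were not searched. Among the members of the 4 chaperone lists that were called higher it was in 4 of 25 (16%), and among the other tested members in 1 of 47 (2.13%). No match was found in the promoters searched for HSPA1A, HSPA1B, DNAJB1, HSPH1, BAG3, BAG5 and HSP90AA1, among others that rose. The 4 stretches are shown because they belong to chaperone genes that rose, 5′ to 3′ on the gene's strand, with the matching bases in capitals.
HSPA6 (chr1:161524432-161524512, plus strand): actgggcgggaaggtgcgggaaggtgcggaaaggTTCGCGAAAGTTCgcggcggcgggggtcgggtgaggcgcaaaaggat
DNAJB6 (chr7:157336839-157336919, plus strand): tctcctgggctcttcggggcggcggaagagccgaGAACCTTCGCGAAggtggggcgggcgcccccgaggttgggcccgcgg
DNAJA1 (chr9:33025242-33025322, plus strand): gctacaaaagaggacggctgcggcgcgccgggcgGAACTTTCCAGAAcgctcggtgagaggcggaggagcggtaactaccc
CHORDC1 (chr11:90223053-90223143, minus strand): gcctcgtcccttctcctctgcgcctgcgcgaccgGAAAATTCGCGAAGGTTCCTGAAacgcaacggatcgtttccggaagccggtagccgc
The element lies 74 bases before the start in HSPA6, 131 in DNAJB6 and 60 in CHORDC1, where overlapping matches fill 23 bases, and 3 bases past the start in DNAJA1. These are matches of letters and not measured binding.

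The ATF4 pathway moved in the same direction at smaller sizes. Of 16 tested transcription factor genes of the pathway 8 rose, against 6.51% of all genes, with a median log2 fold change of 0.27. ATF3, a repressor induced by ATF4 and by other stresses, was at 323, 299 and 291 CPM in ABEmax and 121, 113 and 116 CPM in nCas9 (1.38 ± 0.0763, adjusted p = 9.64e-18). DDIT3, also called CHOP, was at 48.8, 51.9 and 46.8 CPM in ABEmax and 30.7, 31.8 and 31.8 CPM in nCas9 (0.65 ± 0.0791, adjusted p = 1.52e-07). TRIB3, a pseudokinase that feeds back on ATF4, rose by 0.51, the ATF4 partner CEBPG by 0.35, and ATF4 itself by 0.23, at 724, 727 and 670 CPM in ABEmax and 609, 590 and 605 CPM in nCas9 (adjusted p = 0.00447). The calls of NUPR1 (0.91), CEBPB (0.59) and JDP2 (0.38) depended on single libraries. NUPR1 was no longer called without ABEmax replicate 1 or 2 or nCas9 replicate 1 or 3 (adjusted p up to 0.202), CEBPB without ABEmax replicate 1 or 2 or nCas9 replicate 2 (up to 0.125), and JDP2 without ABEmax replicate 1 or nCas9 replicate 2 (up to 0.0893). Without ABEmax replicate 1 the list had 5 members called higher.

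Of 16 genes for eIF2alpha kinases, phosphatase subunits and related factors 5 rose, against 6.51% of all genes. PPP1R15A, the stress-induced subunit that directs dephosphorylation of eIF2alpha, was at 87.5, 75.7 and 82.2 CPM in ABEmax and 44.7, 44.9 and 50.5 CPM in nCas9 (0.81 ± 0.081, adjusted p = 9.19e-10). The double-stranded RNA sensor EIF2AK2, or PKR, rose by 0.29 (adjusted p = 0.00555) and the endoplasmic reticulum kinase EIF2AK3, or PERK, by 0.33 (adjusted p = 0.0111). Against GFP, EIF2AK2 did not pass (0.02, adjusted p = 0.800), and EIF2AK3 lost its call against nCas9 without ABEmax replicate 1 or nCas9 replicate 2 (adjusted p up to 0.0955). The amino acid sensor EIF2AK4, or GCN2, had a log2 fold change of 0.03 (adjusted p = 0.822) and EIF2AK1, or HRI, of -0.14 (adjusted p = 0.0638). Without ABEmax replicate 1 or nCas9 replicate 2 the list had 3 members called higher.

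Enzymes for serine, asparagine, cysteine and one-carbon metabolism had 10 of 18 tested members higher, against 6.51% of all genes, with a median of 0.25. The count stayed at 10 or 11 with any library left out. CTH, which makes cysteine by transsulfuration, was at 143, 138 and 131 CPM in ABEmax and 81.2, 75.3 and 80.6 CPM in nCas9 (0.80 ± 0.0697, adjusted p = 2.08e-11). CHAC1, which degrades glutathione, was at 30.1, 29.1 and 37.8 CPM in ABEmax and 17.9, 15.5 and 18.6 CPM in nCas9 (0.90 ± 0.113, adjusted p = 2.89e-07). GPT2, an alanine transaminase, rose by 0.51, asparagine synthetase ASNS by 0.32, SHMT2 by 0.26 and PSAT1 by 0.27. ASNS was lower in ABEmax than in GFP (-0.22, adjusted p = 0.00315).

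Cytosolic aminoacyl-tRNA synthetases, which charge tRNAs, had 7 of 23 members higher, against 6.51% of all genes. The rises were led by CARS (0.49, adjusted p = 1.02e-07), GARS (0.39), MARS (0.37) and TARS (0.34). The mitochondrial synthetases had 2 of 17 lower, against 4.66% of all genes. CARS2 (-0.27, adjusted p = 0.0456) was no longer called without any of the ABEmax replicates or nCas9 replicate 1 or 2, with adjusted p up to 0.224. The cytosolic count was 4 without ABEmax replicate 1 or nCas9 replicate 2 or 3. Of 21 amino acid transporters 7 rose, against 6.51% of all genes. The cystine transporter SLC7A11 was at 200, 198 and 182 CPM in ABEmax and 121, 118 and 125 CPM in nCas9 (0.67 ± 0.0739, adjusted p = 1.07e-08), and did not pass against GFP (-0.11, adjusted p = 0.214). Its heavy-chain partner SLC3A2 rose by 0.43, SLC1A4 by 0.65, the glycine transporter SLC6A9 by 0.67 and the arginine transporter SLC7A1 by 0.40.

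Among sestrins and other brakes on the growth kinase mTORC1 5 of 15 rose and 1 fell, against 6.51% and 4.66% of all genes. SESN2, a leucine sensor, was at 370, 328 and 375 CPM in ABEmax and 203, 199 and 216 CPM in nCas9 (0.79 ± 0.0747, adjusted p = 1.68e-10). DDIT4, or REDD1, was at 151, 151 and 148 CPM in ABEmax and 98.7, 105 and 106 CPM in nCas9 (0.54, adjusted p = 5.25e-07). EIF4EBP2, a translation repressor, was the member called lower (-0.26, adjusted p = 0.00764), and was no longer called without ABEmax replicate 1 or nCas9 replicate 1 (adjusted p up to 0.0656). The count of higher members ran from 2 to 4 with 1 library left out, lowest without ABEmax replicate 3 and 3 without ABEmax replicate 2 or any nCas9 replicate. Of 10 stress-induced secreted factors 3 rose, against 6.51% of all genes: STC2 (0.49), VEGFA (0.39) and ADM2 (1.02).

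The C/EBP-ATF response element, spelled TGATGNAA and read on both strands, was in 3.62% of all promoters in the table. It was in 1.56% of those of tested genes, again the first listed under each symbol. Of the ATF4-pathway list members called higher 8 of 31 held it (25.8%), and of the other tested members 4 of 47 (8.51%). No match was found in the promoters searched for DDIT3, TRIB3, CTH and SESN2, among others that rose. The stretches of 4 members that rose are shown with the element in capitals, in either orientation.
ATF3 (chr1:212565182-212565257, plus strand): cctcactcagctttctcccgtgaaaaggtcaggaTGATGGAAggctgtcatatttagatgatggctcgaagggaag
CHAC1 (chr15:40953228-40953303, plus strand): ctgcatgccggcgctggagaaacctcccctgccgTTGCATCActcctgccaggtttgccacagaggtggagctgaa
ASNS (chr7:97872435-97872510, minus strand): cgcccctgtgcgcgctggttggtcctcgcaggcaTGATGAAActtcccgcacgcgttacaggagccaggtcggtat
SLC3A2 (chr11:62881702-62881748, plus strand): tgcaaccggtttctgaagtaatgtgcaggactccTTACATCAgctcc
It lies 191 bases before the start in ATF3, 209 in CHAC1 and 68 in ASNS, and 37 bases past the start in SLC3A2. A match of this short word is a description of the sequence and not a site of binding.

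**Figure D2:**
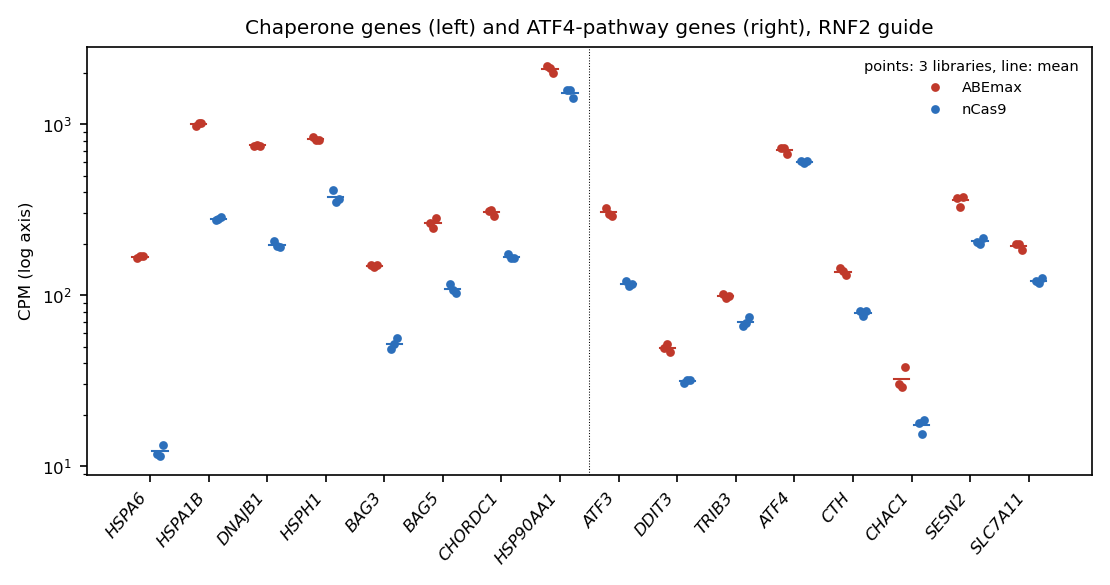
Levels of 8 chaperone genes (left of the dotted line) and 8 ATF4-pathway genes (right of it) in CPM on a log axis, with red points for the 3 ABEmax libraries, blue points for the 3 nCas9 libraries and a line at each mean. All 16 were picked from genes called higher in ABEmax, and uncalled or falling members of the same lists are not shown. Their ABEmax points lie above the nCas9 points without overlap. The gap is widest in HSPA6 (164 to 170 CPM in ABEmax, 11.5 to 13.3 CPM in nCas9) and narrow in ATF4.

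Early response genes rose in part. Of 10 AP-1 factors 4 were called higher, with FOS at 22.8, 22.3 and 27.4 CPM in ABEmax and 14.4, 9.73 and 14 CPM in nCas9 (0.92 ± 0.129, adjusted p = 2.42e-06) and JUN higher by 0.38 (adjusted p = 0.000101). The calls of FOSL2 (0.64) and MAFG (0.34) were lost without ABEmax replicate 3 or nCas9 replicate 2, and that of FOSL2 also without nCas9 replicate 1, with adjusted p up to 0.0917 for FOSL2 and 0.167 for MAFG. The AP-1 count was 2 without ABEmax replicate 3 or nCas9 replicate 2. Of 21 EGR, IER and NR4A genes 3 rose, against 6.51% of all genes, among them the orphan receptor NR4A1 (0.62, adjusted p = 9.02e-05). The dual-specificity phosphatases, which switch off MAP kinases, had 3 of 16 higher and 1 lower, against 6.51% and 4.66% of all genes. DUSP1 was at 64.2, 62.7 and 60.5 CPM in ABEmax and 36.0, 32.2 and 35.5 CPM in nCas9 (0.85 ± 0.0935, adjusted p = 1.07e-08), DUSP16 rose by 0.58 and DUSP8 by 0.54, and DUSP9 fell by 0.44. DUSP8 was no longer called without ABEmax replicate 3 or nCas9 replicate 1 (adjusted p up to 0.117), and DUSP9 was higher in ABEmax than in GFP (0.34, adjusted p = 0.00337).

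Targets of the mechanosensitive factor YAP and its partner TEAD had 5 of 25 higher, against 6.51% of all genes. ANKRD1 was at 4.17, 3.62 and 4.88 CPM in ABEmax and 0.696, 0.499 and 0.897 CPM in nCas9 (2.57 ± 0.336, adjusted p = 5.93e-07). Relative to GFP, where it averaged 14.9 ± 2.02 CPM (SD, n = 3), ANKRD1 was lower in ABEmax (-1.82, adjusted p = 1.98e-11). AMOTL2 (0.88), the matricellular CYR61 (0.81) and CTGF (1.04) rose as well, and CTGF was no longer called without ABEmax replicate 3 or nCas9 replicate 2 (adjusted p up to 0.0819). Krueppel-like factors had KLF2 called higher (1.29, adjusted p = 0.0315) and KLF9 (-0.24) and KLF16 (-0.35) called lower of 13 tested, and none of these calls held when libraries were left out. KLF2 was lost without ABEmax replicate 2 or 3 or nCas9 replicate 2, KLF9 without ABEmax replicate 1 or 3 or any nCas9 replicate, and KLF16 without ABEmax replicate 1 or 2 or any nCas9 replicate, with adjusted p up to 0.188, 0.226 and 0.205.

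Other stress pathways were mixed. Of 27 genes of the endoplasmic reticulum unfolded protein response 3 rose and 2 fell, beside 6.51% of all tested genes higher and 4.66% lower. XBP1, a transcription factor of that response, was at 333, 332 and 331 CPM in ABEmax and 236, 241 and 229 CPM in nCas9 (0.50 ± 0.0669, adjusted p = 1.14e-06), HERPUD1, a degradation factor, rose by 0.56, and SEC61B, a subunit of the translocon, fell by 0.40. Targets of the antioxidant factor NRF2 split, with 4 of 22 higher and 5 lower. HMOX1, the haem-degrading enzyme, was at 102, 88.5 and 100 CPM in ABEmax and 64.5, 61.5 and 71.4 CPM in nCas9 (0.56 ± 0.0948, adjusted p = 6.90e-05), whereas thioredoxin TXN (-0.29, adjusted p = 0.00968) and peroxiredoxin PRDX1 (-0.26, adjusted p = 0.0272) were lower. TXN was no longer called without ABEmax replicate 3 or nCas9 replicate 2 and PRDX1 without these or nCas9 replicate 1, with adjusted p up to 0.102 and 0.165. Calls for GCLM (0.23) and for NFE2L2, which encodes NRF2 (0.24), were lost in 4 and in 5 of the 6 fits that leave out 1 library, all but those without ABEmax replicate 2 or nCas9 replicate 1 for GCLM and without ABEmax replicate 3 for NFE2L2, with adjusted p up to 0.129 and 0.191. KEAP1, the repressor of NRF2, had a log2 fold change of 0.05 (adjusted p = 0.748). With 1 library left out the NRF2 list had 1 to 3 members called lower, fewest without ABEmax replicate 3, and 2 to 3 called higher, 2 of them without ABEmax replicate 1 or nCas9 replicate 2 or 3. Of 5 tested metallothionein and zinc response genes, MT2A fell by 0.83 (adjusted p = 0.00242), at 3.19, 5.43 and 5.01 CPM in ABEmax and 7.08, 9.23 and 7.94 CPM in nCas9. The zinc-sensing factor MTF1 was called higher (0.33, adjusted p = 0.0466), and not without ABEmax replicate 2 or 3 or nCas9 replicate 2 or 3 (adjusted p up to 0.264).

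Of 25 p53 targets 4 rose, against 6.51% of all genes, among them SESN2, given above, and GADD45A, a growth arrest gene (0.51, adjusted p = 0.000218). The repair gene XPC (0.35) was no longer called without ABEmax replicate 1 (adjusted p = 0.0520), and the nuclease AEN (0.27) without ABEmax replicate 1 or 2 or nCas9 replicate 2 or 3 (up to 0.101). The p53 count was 2 without ABEmax replicate 1. The BCL2 family had 2 of 16 called higher and 1 lower, against 6.51% and 4.66% of all genes. BMF, a BH3-only killer protein, fell to 7.11, 7.97 and 5.65 CPM in ABEmax, against 13.1, 12.6 and 11.8 CPM in nCas9 (-0.85 ± 0.168, adjusted p = 0.000577). Calls for the BH3-only HRK (0.59) and PMAIP1 (0.22) were lost without ABEmax replicate 1 or nCas9 replicate 1 or 3, for HRK also without ABEmax replicate 3 and for PMAIP1 also without ABEmax replicate 2 or nCas9 replicate 2, with adjusted p up to 0.0793 and 0.258. Of 12 death receptor genes edgeR called 0 and DESeq2 0, with 2 at an unadjusted p under 0.05, and of 20 interferon-stimulated genes edgeR called 0 and DESeq2 0, with 2 at an unadjusted p under 0.05. The death receptor gene of highest level, the TRAIL receptor TNFRSF10B, had overlapping groups (0.05, adjusted p = 0.778).

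**Figure D3:**
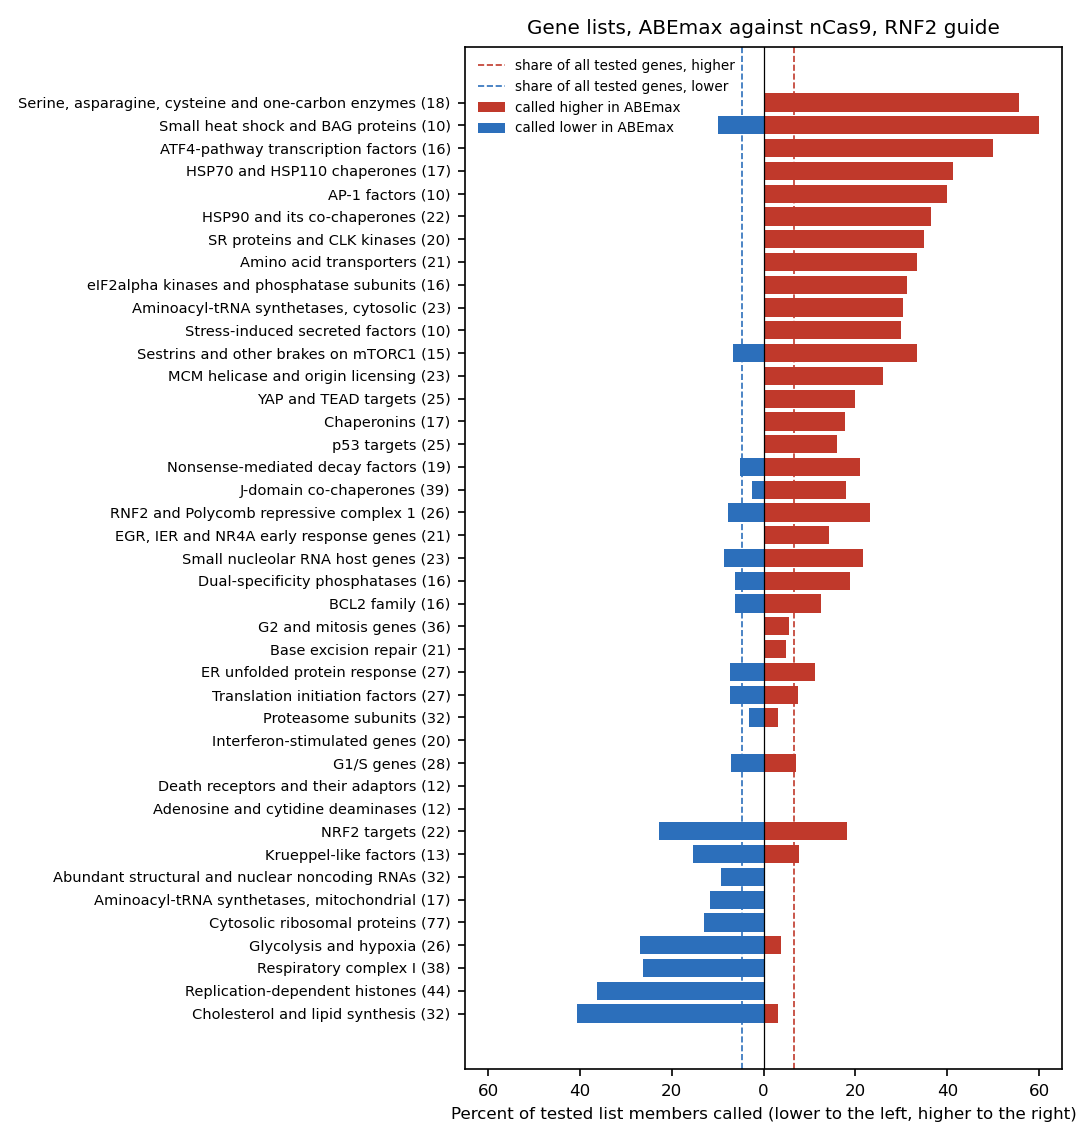
Percent of tested members of each gene list called higher (red, to the right) or lower (blue, to the left) in ABEmax against nCas9 with the RNF2 guide, for lists with at least 10 tested members, whose number stands in brackets. Dashed lines mark the shares over all tested genes, 6.51% higher and 4.66% lower. The small heat shock and BAG, amino acid enzyme, ATF4-pathway factor and HSP70 lists extend furthest to the right, followed by AP-1 factors (4 of 10). J-domain proteins (7 of 39) and chaperonins (3 of 17) extend less than SR proteins and CLK kinases (7 of 20). Histones and cholesterol synthesis extend furthest to the left.

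Of the 12 largest rises, 9 were in none of the stress lists. NRP2, a semaphorin and VEGF co-receptor (chromosome 2, 205681990 to 205798133), was at 416, 270 and 522 CPM in ABEmax and at 11.8, 13 and 13.2 CPM in nCas9 (log2 fold change 4.99 ± 0.153, adjusted p = 1.72e-26). The ABEmax libraries differed among themselves and still lay far above every nCas9 library. SGSH, a lysosomal sulfatase that degrades heparan sulfate (chromosome 17, 80206716 to 80220923), was at 214, 179 and 236 CPM in ABEmax and 14, 14.2 and 16.4 CPM in nCas9 (3.82 ± 0.109, adjusted p = 2.17e-27). MAST3, a microtubule-associated kinase, was at 131, 124 and 178 CPM in ABEmax and 14.3, 13.6 and 13.3 CPM in nCas9 (3.39 ± 0.12, adjusted p = 2.18e-24). FRMD4A, a scaffold of epithelial polarity, was at 113, 112 and 142 CPM in ABEmax and 10.8, 11.6 and 11.7 CPM in nCas9 (3.43 ± 0.145, adjusted p = 8.30e-22). That the groups did not overlap in these 4 genes was a condition of their choice.

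Lower in level, ADCY4, an adenylate cyclase, was at 12.6, 12.7 and 17.3 CPM in ABEmax and 0.232, 0.374 and 0.512 CPM in nCas9 (5.21 ± 0.359, adjusted p = 1.36e-14). The taste receptor subunit TAS1R1 was at 9.68, 9.30 and 10.1 CPM in ABEmax and 0.348, 0.249 and 0.128 CPM in nCas9 (5.22 ± 0.416, adjusted p = 1.28e-12). ABHD1 was at 27.8, 11.4 and 25.7 CPM in ABEmax and 1.04, 2.12 and 1.41 CPM in nCas9 (3.82 ± 0.294, adjusted p = 4.69e-13). OLFM1, a secreted olfactomedin, was at 3.43, 2.29 and 3.08 CPM in ABEmax and 0.232, 0.125 and 0.128 CPM in nCas9 (4.05 ± 0.576, adjusted p = 3.36e-06). ADCY4, TAS1R1 and OLFM1 had at most 4 counts in any nCas9 library, so their SE may understate counting error. FAM230B, a noncoding transcript on chromosome 22, had 250 counts in the ABEmax libraries together and 1 in the nCas9 libraries, a ratio per depth of 256 with a 95% exact counting interval from 45.6 to 10200 that covers counting error only. HSPA6, HSPA7 and CRYAB, described above, complete the 12 largest rises.

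Levels in the other groups differed from gene to gene. NRP2 averaged 402 ± 126 CPM in ABEmax with the RNF2 guide and 536 ± 32.6 CPM in ABEmax with the HEKsite2 guide, and from 12.7 to 17.5 CPM in the 9 groups without ABEmax (SD, n = 3 each). Against the editors with the same guide the log2 fold change was 4.79 over miniABEmax-V82G, 4.68 over Target-AID and 4.89 over SpACE, with adjusted p of 4.30e-26, 5.59e-27 and 1.49e-26. SGSH, MAST3 and FRMD4A were likewise higher than in miniABEmax-V82G by 3.50, 3.54 and 3.35. OLFM1 differed, since it was highest in Target-AID (82.2 ± 7.34 CPM with the RNF2 guide, against which ABEmax was at -4.80, adjusted p = 3.98e-25). HSPA6 averaged 168 ± 2.83 CPM in ABEmax, 111 ± 5.70 CPM in miniABEmax-V82G, 99.5 ± 8.57 CPM in SpACE and 1214 ± 181 CPM in Target-AID, all with the RNF2 guide, and 3.58 ± 0.449 CPM in GFP. BAG5 averaged 265 ± 17.3 CPM in ABEmax and 117 ± 8.03 CPM in miniABEmax-V82G (1.18 ± 0.0694, adjusted p = 1.93e-16), and over all groups it was at 265 and 284 CPM with ABEmax and at 79 to 117 CPM without it.

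**Figure D4:**
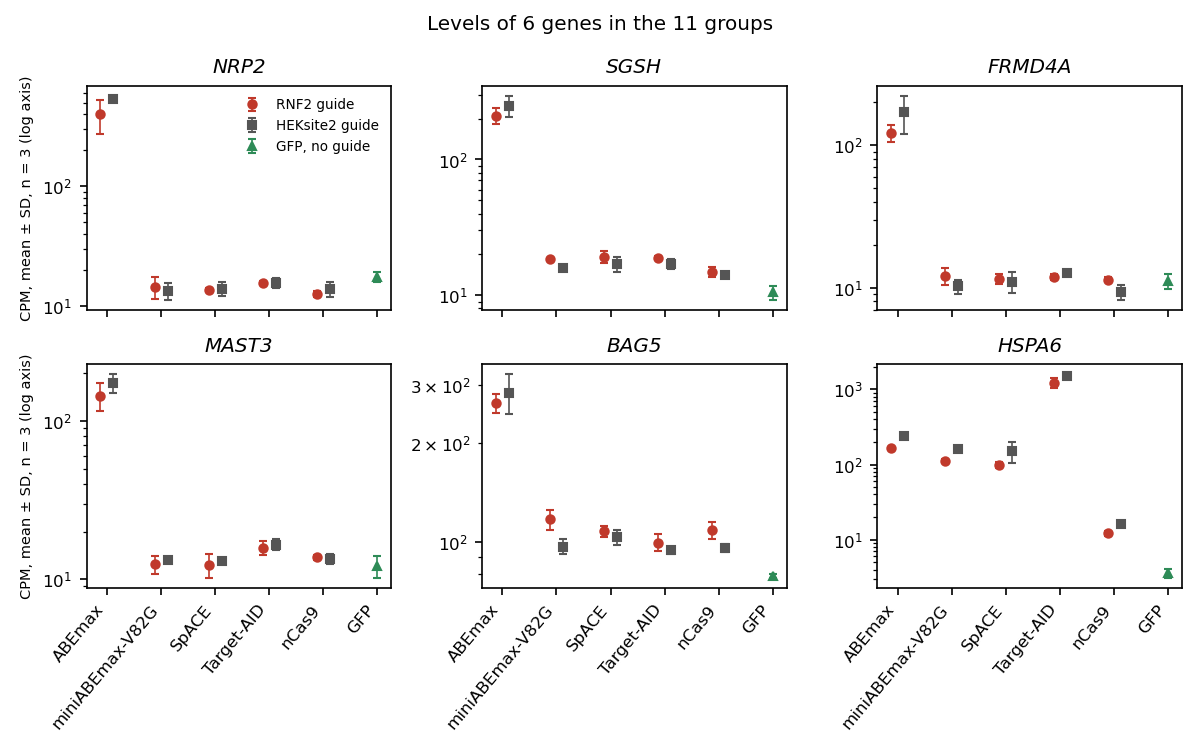
Mean level in CPM on a log axis, with SD over 3 libraries, of 6 genes in the 11 groups, with circles for the RNF2 guide, squares for the HEKsite2 guide and a triangle for GFP without a guide. NRP2, SGSH, FRMD4A and MAST3 stand at 122 to 536 CPM in the ABEmax groups and at 9.28 to 19.2 CPM in every other group. BAG5 shows the same shape with a smaller step, while HSPA6 is also raised by the other editors and is highest in Target-AID.

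A set of nearly silent genes was chosen after its values were seen: 17 genes called higher had at most 3 counts in the 3 nCas9 libraries together, and 6 of them had 0. KCNU1, a sperm potassium channel gene, had 14, 10 and 15 counts in the ABEmax libraries and 0 in nCas9. With a floor of 3 counts over the nCas9 group the ratio per depth was 13.3. GOLGA6L2 had 10, 11 and 4 counts in ABEmax and 0 in nCas9, a ratio of 8.54 against the same floor. Neither ratio is a lower limit, since error in the ABEmax counts is left out. CLDN3, a tight junction claudin, had 91 counts in ABEmax and 2 in nCas9 (ratio 46.6, interval 12.5 to 391), and SEMA5A, a semaphorin, 48 and 1 (ratio 49.2, interval 8.42 to 1980). Since these genes were chosen for low nCas9 counts and mostly passed the filter through the ABEmax groups, calls in other comparisons are not counted. In ABEmax with the HEKsite2 guide FAM230B had 260 counts and GOLGA6L2 32. Aside from HSPA7, no group without ABEmax had more than 7 counts of any of them.

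Genes next to the 12 largest rises were read for changes over a wider region. Within 20000 bases, or overlapping, no tested gene was found for NRP2, FAM230B, HSPA6, HSPA7 or OLFM1. For the other rises 13 genes were tested, of which 1 was called higher and 0 lower, against 6.51% and 4.66% of all genes. The exception, SLC26A11, overlaps SGSH on the opposite strand and was at 27.7, 24.0 and 31.3 CPM in ABEmax and 19.0, 21.0 and 22.2 CPM in nCas9 (0.42 ± 0.105, adjusted p = 0.00653). It was no longer called without ABEmax replicate 3 or nCas9 replicate 1 (adjusted p up to 0.076), and whether counting used strand is not given, so reads of SGSH and of SLC26A11 cannot be told apart. PREB, which overlaps ABHD1 on the opposite strand, had a log2 fold change of -0.11 (adjusted p = 0.429). PIK3R2, 1426 bases from MAST3, was at -0.22 (adjusted p = 0.0620) and ZBTB48, 244 bases from TAS1R1, at 0.30 (adjusted p = 0.104).

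Falls were smaller. IGFBP5, a secreted binder of insulin-like growth factors, was at 23.8, 21.0 and 21.8 CPM in ABEmax and 47.0, 47.8 and 40.5 CPM in nCas9 (-1.02 ± 0.113, adjusted p = 1.36e-08). EFNA3, an ephrin ligand, was at 8.33, 7.49 and 8.35 CPM in ABEmax and 15.4, 15.2 and 18.2 CPM in nCas9 (-1.01 ± 0.136, adjusted p = 1.08e-06). Against miniABEmax-V82G neither passed (log2 fold change -0.07 for IGFBP5 and 0.07 for EFNA3), and EFNA3 did not pass against GFP (-0.27, adjusted p = 0.116). MXRA5, a matrix gene, was at 3.31, 4.71 and 6.81 CPM in ABEmax and 8.81, 10.4 and 9.35 CPM in nCas9 (-0.95, adjusted p = 0.000396), and against GFP it did not pass (0.15, adjusted p = 0.574). The chemokine receptor CXCR4, chosen for its fall against miniABEmax-V82G, was at 9.80, 7.85 and 10.3 CPM in ABEmax and 15.9, 15.3 and 13.7 CPM in nCas9 (-0.69, adjusted p = 0.000196), and higher than in GFP (0.40, adjusted p = 0.0156).

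The other falls named within the same limits on level, symbol and overlap lay under 10 CPM. LOXL1, a lysyl oxidase of the matrix, fell by 1.38, the U5 small nuclear RNA gene RNU5D-1 by 1.24 and the zinc finger gene ZNF169 by 0.95, with no call lost on leaving out a library. The Fanconi anaemia gene FANCF (-1.26) was no longer called without nCas9 replicate 2 (adjusted p = 0.0769), and C7orf13 (-1.02) without ABEmax replicate 1 or 3 (up to 0.0742). The box C/D RNA SNORD3C (-1.30) lost it without ABEmax replicate 1 or 2 or nCas9 replicate 2 or 3 (up to 0.131), CCBE1, a lymphatic growth factor cofactor (-1.04), without ABEmax replicate 1 or 3 or nCas9 replicate 2 (up to 0.223), and STX11, a syntaxin (-1.03), in all but the fit without nCas9 replicate 3 (up to 0.194). DOK7, an adaptor of the muscle kinase MuSK, was at 3.55, 0.966 and 5.01 CPM in ABEmax and 5.10, 6.86 and 6.53 CPM in nCas9 (-0.96, adjusted p = 0.0123), was no longer called without ABEmax replicate 2 or nCas9 replicate 2 (up to 0.149) and was higher than in GFP (0.76, adjusted p = 0.0444). Against GFP, LOXL1 (-0.40), FANCF (-0.63), STX11 (-0.22) and C7orf13 (-0.33) did not pass. With the HEKsite2 guide, edgeR did not call LOXL1 (-0.64, adjusted p = 0.247), RNU5D-1 (-0.36, adjusted p = 0.382) or ZNF169 (-0.28, adjusted p = 0.54). FANCF (0.08) and DOK7 (0.44) had the opposite sign there and did not pass, and neither did MXRA5, C7orf13, SNORD3C, CCBE1 or STX11. IGFBP5 (-1.26) and EFNA3 (-1.40) were called lower with that guide too.

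Replication-dependent histone genes fell, 16 of 44 tested against 4.66% of all genes, with a median of -0.28. HIST2H2BF was at 238, 232 and 242 CPM in ABEmax and 274, 344 and 322 CPM in nCas9 (-0.40 ± 0.0899, adjusted p = 0.0025), and HIST1H4B at 255, 256 and 252 CPM in ABEmax and 314, 386 and 314 CPM in nCas9 (-0.41, adjusted p = 0.00466). nCas9 replicate 2 was the highest of the 6 for both genes, and without it 1 histone gene was called and HIST1H4B was not (adjusted p = 0.0843). HIST1H3E (-0.57) was no longer called without that library or ABEmax replicate 3 (adjusted p up to 0.11). Without ABEmax replicate 3 the list had 7 called lower, and in the fit of only the 2 groups 28. Histone genes are a family of near-identical copies whose reads could be divided among members.

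Cholesterol and lipid synthesis genes fell in 13 of 32 cases, against 4.66% of all genes, with a median of -0.13. SREBF1, a transcription factor of that pathway, rose. SREBF1 was at 56.0, 59.2 and 58.4 CPM in ABEmax and 34.4, 34.4 and 44.3 CPM in nCas9 (0.62 ± 0.1, adjusted p = 3.52e-05), and SREBF2, its paralogue for cholesterol genes, at 155, 159 and 176 CPM in ABEmax and 157, 149 and 158 CPM in nCas9 (0.08, adjusted p = 0.429). TM7SF2, a sterol reductase, fell by 0.60 (adjusted p = 7.06e-05) and the desaturase FADS2 by 0.33 (adjusted p = 0.00419). Against GFP, TM7SF2 (-0.22, adjusted p = 0.0777) and FADS2 (-0.06, adjusted p = 0.584) did not pass. The count was 4 without ABEmax replicate 3, 6 without nCas9 replicate 2 and 8 without nCas9 replicate 1.

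Among 38 complex I genes, subunits of the first respiratory enzyme, 10 fell, against 4.66% of all genes, with a median of -0.21. NDUFB5 was at 40.9, 39.2 and 36.1 CPM in ABEmax and 56.1, 60.2 and 52.1 CPM in nCas9 (-0.53 ± 0.0836, adjusted p = 2.07e-05), NDUFB3 fell by 0.42 and NDUFB2 by 0.38. The count was 4 without ABEmax replicate 3 and 6 without nCas9 replicate 1 or 2. In the glycolysis and hypoxia list 7 of 26 fell, with a median of -0.17. Lactate dehydrogenase LDHA was at 533, 522 and 484 CPM in ABEmax and 675, 722 and 642 CPM in nCas9 (-0.41 ± 0.0706, adjusted p = 0.000105), PGAM1 fell by 0.24 and ALDOA by 0.26. GAPDH was called lower (-0.19, adjusted p = 0.0447) but was no longer called without any one of the 6 libraries (adjusted p up to 0.163). The glycolysis count was 4 without nCas9 replicate 2.

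Cytosolic ribosomal protein genes shifted slightly and together, with a median of -0.14 and a positive value in 3 of 77. Of these 77, 10 were called lower, against 4.66% of all genes. RPS26 was at 126, 122 and 114 CPM in ABEmax and 147, 164 and 155 CPM in nCas9 (-0.36 ± 0.0804, adjusted p = 0.00222). RPL23A (-0.26) was no longer called without nCas9 replicate 2 (adjusted p = 0.0521). The count was 2 without nCas9 replicate 2, 3 without ABEmax replicate 3 and 6 without ABEmax replicate 1, and 25 in the fit of only the 2 groups. These genes have many processed pseudogenes that could take reads. Abundant structural and nuclear noncoding RNAs had a median of -0.42. Of 32 tested, 3 were called lower, against 4.66% of all genes: RNU5D-1, SNORD3C and the minor spliceosome RNA RNU12 (-0.91). RNU12 was no longer called without ABEmax replicate 3 or nCas9 replicate 2 (adjusted p up to 0.0722). The count was 22 when only the 2 groups were fitted, 24 with no filter on low counts and 1 without nCas9 replicate 2.

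In base excision repair, POLB, the gap-filling polymerase (0.24, adjusted p = 0.0348), was the member called of 21 tested, and was no longer called without any one of the 6 libraries (adjusted p up to 0.118). In mismatch repair 2 of 9 were called higher, against 6.51% of all genes. The exonuclease EXO1 (0.21) was no longer called without ABEmax replicate 1 or 2 or nCas9 replicate 1 or 2 (up to 0.15). Of 12 tested adenosine and cytidine deaminase genes edgeR called 0 and DESeq2 0, with 0 at an unadjusted p under 0.05. The RNA-editing enzyme ADAR was at 380, 365 and 396 CPM in ABEmax and 367, 350 and 367 CPM in nCas9 (0.07, adjusted p = 0.441), and ADARB1 had a log2 fold change of 0.09 (adjusted p = 0.589).

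RNA processing genes showed scattered rises. SR proteins and the CLK kinases that phosphorylate them had 7 of 20 higher, against 6.51% of all genes. CLK1 was at 90.4, 96.8 and 88.2 CPM in ABEmax and 57.5, 64.2 and 59.8 CPM in nCas9 (0.60 ± 0.0973, adjusted p = 3.52e-05), CLK4 rose by 0.46 and the splicing activator TRA2B by 0.29. The count was 4 without nCas9 replicate 2. Nonsense-mediated decay factors had 4 of 19 higher and 1 lower, with the kinase SMG1 (0.36) and its regulator SMG9 (0.38) among the rises, and RBM8A, an exon junction protein (-0.18), called lower but not without ABEmax replicate 2 or 3 or nCas9 replicate 1 or 2 (adjusted p up to 0.202). Of 23 small nucleolar RNA host genes 5 rose and 2 fell, against 6.51% and 4.66% of all genes. EPB41L4A-AS1 was at 34.6, 34.7 and 34.2 CPM in ABEmax and 21.1, 22.7 and 24.3 CPM in nCas9 (0.60, adjusted p = 3.26e-05), SNHG17 rose by 0.42, and DANCR (-0.34) was no longer called without nCas9 replicate 2 (adjusted p = 0.0767). The host gene count was 2 without nCas9 replicate 1 or 2 and 3 without ABEmax replicate 2. Among 27 translation initiation factors 2 were called higher and 2 lower, near the 6.51% and 4.66% of all genes. EIF5 rose by 0.45 (adjusted p = 1.33e-07) and the helicase EIF4A2 by 0.38 (adjusted p = 0.000264).

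Of 26 genes of RNF2 and Polycomb repressive complex 1, 6 were called higher and 2 lower, against 6.51% and 4.66% of all genes. Each of those named here was no longer called without some library. The chromobox gene CBX7 (0.95) was lost without ABEmax replicate 3 or nCas9 replicate 3, SCMH1 (0.29) without nCas9 replicate 3, and PCGF1 (0.39) without ABEmax replicate 2 or nCas9 replicate 2, with adjusted p up to 0.0946, 0.0677 and 0.128. CBX2 (-0.19) was lost without ABEmax replicate 1 or 2 and CBX8 (-0.41) without ABEmax replicate 2 or 3 or nCas9 replicate 1 or 3, with adjusted p up to 0.0864 and 0.115. The count of higher members ran from 2 to 4 when 1 library was left out. For replication, 6 of 23 origin licensing genes rose, led by ORC6 (0.38, adjusted p = 4.64e-05) and ORC1 (0.34, adjusted p = 0.000439), and the count was 2 without ABEmax replicate 1 and 3 without nCas9 replicate 2 or 3. Of 28 G1/S genes 2 were higher and 2 lower, and of 36 mitotic genes 2 were higher, near the shares of all genes (6.51% higher and 4.66% lower). Cyclin gene CCND1 (-0.41) was no longer called without nCas9 replicate 3 (adjusted p = 0.092), and 3 others depended on more. E2F1 (0.19) was lost without ABEmax replicate 1 or 3 or nCas9 replicate 1 or 2, CDK4 (-0.24) without ABEmax replicate 1 or 3 or nCas9 replicate 2 or 3, and the mitotic microtubule gene PRC1 (0.17) without ABEmax replicate 1 or 2 or nCas9 replicate 2 or 3, with adjusted p up to 0.0879, 0.183 and 0.194. The kinesin gene CENPE was called higher in every such fit (0.32, adjusted p = 0.00524) and was lower in ABEmax than in GFP (-0.47, adjusted p = 2.49e-06).

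With the HEKsite2 guide, whose ABEmax and nCas9 libraries are separate from those above, 1215 genes (8.31%) were higher in ABEmax and 1103 (7.55%) lower. Of the 951 genes called higher with the RNF2 guide 638 were called higher with HEKsite2, which is 67.1% of the RNF2 calls and 52.5% of the HEKsite2 calls. Of the 681 called lower 446 were called lower with HEKsite2, which is 65.5% of the RNF2 calls and 40.4% of the HEKsite2 calls. In opposite directions 0 genes were called, and the sign was shared by 938 of the 951, by 668 of the 681 and by 73.9% of all tested genes. HSPA6 rose by 3.78 with the RNF2 guide and by 3.86 with HEKsite2, DNAJB1 by 1.93 and 2.12, ATF3 by 1.38 and 1.66, and NRP2 by 4.99 and 5.26. Among the 12 largest falls, IGFBP5 and EFNA3 were called with both guides and the rest with the RNF2 guide only. Across the tested genes, which are not independent replicates, Pearson's r of the log2 fold changes was 0.649 and Spearman's rho 0.573.

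The difference between the guides was tested as an interaction, the log2 fold change with the RNF2 guide minus that with HEKsite2. By edgeR 0 genes passed (0%), with a lowest adjusted p of 0.387, and 596 genes (4.08%) were under an unadjusted p of 0.05. DESeq2 called 2 genes, SERPINH1, the collagen chaperone HSP47 (-0.42, adjusted p = 0.046), and HSPA1B (-0.36, adjusted p = 0.046). In the edgeR fit SERPINH1 rose by 0.90 with the RNF2 guide and by 1.32 with HEKsite2, and HSPA1B by 1.85 and 2.20, and their interaction adjusted p was 0.387 and 0.573. A p that misses the threshold does not show that the guides act alike.

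**Figure D5:**
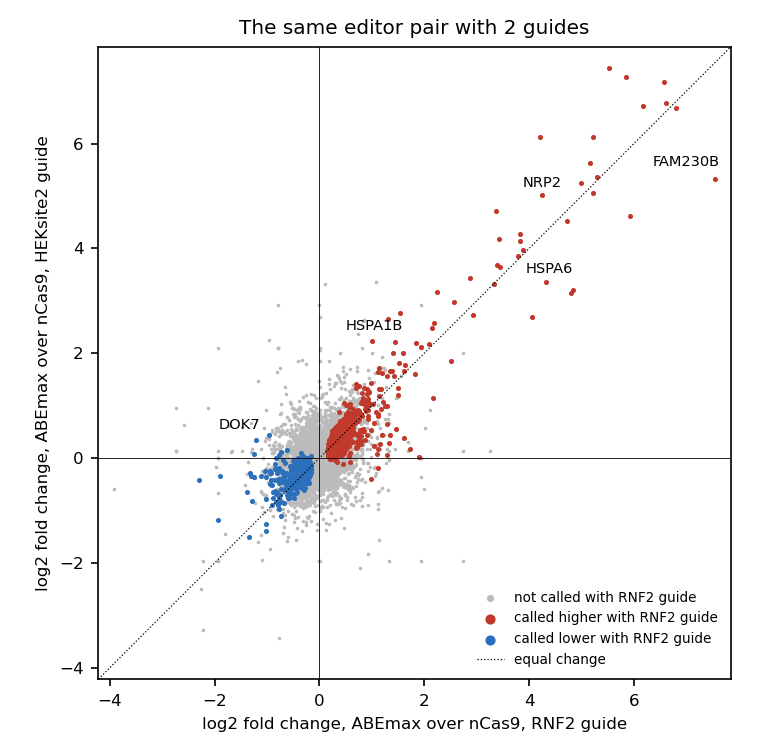
Each point is a tested gene, with the log2 fold change of ABEmax over nCas9 with the RNF2 guide on the horizontal axis and with the HEKsite2 guide on the vertical axis, and the dotted line marks equal change. Red and blue points were called higher and lower with the RNF2 guide. Of the red points 938 of 951 lie above 0 on the vertical axis and of the blue points 668 of 681 below it.

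ABEmax and miniABEmax-V82G with the RNF2 guide differed in far fewer genes. Of the 14613 tested genes 142 (0.972%) were called, 117 higher in ABEmax (0.801%) and 25 lower (0.171%), with 38 and 2 of them at 2-fold or more. Of the 117, 97 were also higher in ABEmax than in nCas9, and of the 25, 3 were also lower than in nCas9; both comparisons use the same ABEmax libraries. The count was 74 to 85 without ABEmax replicate 1 or 2 or any miniABEmax-V82G replicate, 211 without ABEmax replicate 3, and 258 in the fit of only the groups compared. Within the same limits on level and symbol, the largest rises were genes described above: FAM230B (5.83), NRP2 (4.79), ADCY4 (4.56), TAS1R1 (4.49), MAST3 (3.54) and SGSH (3.50). Among stress genes, DDIT3 was higher in ABEmax by 0.70 ± 0.0797 (adjusted p = 7.66e-08), CTH by 0.63, HSPA6 by 0.59, CARS by 0.42, SESN2 by 0.39, DNAJB6 by 0.37, BAG3 by 0.35 and ATF4 by 0.33. HSPA1B was lower in ABEmax (-0.23 ± 0.0584, adjusted p = 0.034). DNAJB1 (0.05 ± 0.0768), HSPH1 (0.06 ± 0.0759) and ATF3 (0.22 ± 0.0729) did not pass.

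Of the 25 falls against miniABEmax-V82G, 2 reached 2-fold. SLC2A1, the glucose transporter GLUT1, averaged 27.0 ± 0.471 CPM in ABEmax and 37.0 ± 0.112 CPM in miniABEmax-V82G (-0.45 ± 0.0906, adjusted p = 0.00315), and kept its call in all 11 alternative fits. MIR762HG (-1.06), SNORD80 (-0.58), CXCR4 (-0.53), ANKRD36C (-0.51) and AXIN2, a Wnt feedback gene (-0.45), were called, each losing its call in 4 to 7 of the 11. Of the 17 tested HSP70 and HSP110 genes 1 was higher and 1 lower than in miniABEmax-V82G, of the 16 ATF4-pathway factors 2 were higher, and of the 18 amino acid enzymes 3 were higher. The shares of all genes in that comparison were 0.801% higher and 0.171% lower. Histones, complex I, ribosomal proteins and cholesterol synthesis had medians of -0.07, 0.00577, -0.01 and -0.04 against miniABEmax-V82G, beside -0.28, -0.21, -0.14 and -0.13 against nCas9.

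GFP cells, labelled with no guide RNA, differed from ABEmax with the RNF2 guide in 7249 genes (49.6%), 3678 higher in ABEmax (25.2%) and 3571 lower (24.4%). HSPA1B averaged 1005 ± 25.5 CPM in ABEmax, 280 ± 7.65 CPM in nCas9 and 636 ± 8.06 CPM in GFP, and DNAJB1 averaged 750 ± 6.58, 197 ± 8.82 and 293 ± 11.4 CPM in the same groups (SD, n = 3 each). nCas9 was below GFP for HSPA1B (-1.19, adjusted p = 2.12e-18) and for DNAJB1 (-0.57, adjusted p = 2.49e-07), and above it for HSPA6 (1.77, adjusted p = 1.74e-07) and ATF3 (0.76, adjusted p = 8.15e-10). ABEmax was above GFP for all 4 of these genes, by 0.66 for HSPA1B, 1.35 for DNAJB1, 5.55 for HSPA6 and 2.14 for ATF3. Of the 17 HSP70 and HSP110 genes 8 were higher and 2 lower than in GFP, and of the 18 amino acid enzymes 13 were higher and 2 lower.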

How the data were processed

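RNA was sequenced from sorted HEK293T cells, and per the labels' protocols the libraries were made from total RNA with a stranded kit. The deposited table holds raw read counts per gene symbol made by the authors, not normalized, for 33 libraries in 11 groups of 3. The submitters' processing notes name STAR, GATK 3.8.1, Picard 2.7 and the GRCh38 build; for the counter and its strand setting the sources used here give nothing. All columns matched a sample, with 0 left over.

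Genes were filtered by edgeR's filterByExpr, scaled by TMM, and fitted over all 33 libraries with 1 mean per group (22 residual degrees of freedom). The two-sided quasi-likelihood F-test of edgeR 4.0.16 compared groups (R 4.3.3, limma 3.58.1), with Benjamini-Hochberg adjustment over 14613 genes and calls at 0.05. CPM uses TMM-scaled totals. The procedure was also run on simulated data whose libraries were independent, so that check does not cover the shared deviations given below. Total counts set the precision. The SE is the size of the log2 fold change divided by the square root of the test's F value. For genes with few counts it can fall below counting error alone. Nothing in the labels says that replicates are separate cultures, so p-values measure only the spread between these libraries. Among the 3 ABEmax and among the 3 nCas9 libraries with the RNF2 guide no pair agreed within counting noise. Same-numbered ABEmax and nCas9 libraries deviated together (r of 0.155, 0.165 and 0.323 over 10339 genes). This pairing comes from the data and not from the labels. The main fit does not use it, so the printed p-values are unpaired, and blocking on the replicate number was tried only as an alternative.

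The genes compared, the 44 lists and the rule for names were chosen with earlier results of these data known. Named are RNF2; the 12 largest rises and falls among calls whose groups do not overlap, leaving out clone, LOC and antisense symbols and means under 1 log2 CPM; up to 8 called members of each list by smallest p, or the 2 of highest level where none is called; fixed regulators; and 6 genes each way against miniABEmax-V82G. Of each list the text prints part of those, and some genes are not reported here. Tried as alternatives were DESeq2 1.42.0, RLE scaling, fitting every gene unfiltered, blocking on the replicate number, fitting the compared groups alone, leaving out each library, and GFP as the control. Positions are from GENCODE 29 (GRCh38) and promoters from RefSeq (GRCh38.p14). Python 3.11.15, pandas 2.3.3 and matplotlib 3.10.9 were used.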

Additional observations from a re-analysis of the deposited data

How the results depend on the processing

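Of the 168 called genes among those checked, 118 kept direction and call in every alternative that keeps nCas9, and 50 lost the call in at least 1 fit without 1 library. With 1 library left out the number of called genes was 827 to 1311, with 511 to 740 higher and 316 to 571 lower, and against miniABEmax-V82G it was 74 to 211. The replicate block gave 1806 called genes in place of 1632 and changed the call of no gene named. Fitting only the groups compared gave 258 genes against miniABEmax-V82G. The guide interaction had 5 genes with no filter on low counts (FRMD4A, SNORD15B, SCARNA5, DOK7 and CLU) and 2 with DESeq2; the cause was not tested. With GFP in place of nCas9, 7249 genes were called, 3678 higher and 3571 lower, and some log2 fold changes took the opposite sign: HSPA4L -0.0062, HSP90AA1 -0.27, HSPD1 -0.083, CCT4 -0.034, HSF1 0.027, EIF2AK4 -0.43, ASNS -0.22, SLC7A11 -0.11, DUSP9 0.34, KLF16 0.42, ANKRD1 -1.82, GCLM -0.44, DOK7 0.76, MXRA5 0.15, RBM8A 0.0275, RNF2 -1.06, CBX2 0.19, CCND1 0.0556, CDK4 0.28, CENPE -0.47 and CXCR4 0.40. The construct and the guide both differ between ABEmax and GFP and cannot be told apart there. Total counts of 6790209 to 11200406 limit genes under about 1 CPM, where single counts set the value.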

Other observations

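Small structural RNA genes, grouped by annotation class after their values were seen, shifted down as a class with the RNF2 guide. Of 199 tested, 0 were called higher by edgeR and 14 lower (7.04%), beside 6.51% and 4.66% of all tested genes. The class had a median log2 fold change of -0.32 and 82.4% of its genes below 0, beside 50.3% of protein-coding genes. With the HEKsite2 guide the median of the same class was -0.05, against miniABEmax-V82G it was -0.19 and against GFP -0.49. The difference between the guides was not tested for the class. The collagen chaperone SERPINH1, chosen after its values were seen, was at 211, 200 and 188 CPM in ABEmax and 102, 109 and 111 CPM in nCas9, and the secreted chaperone CLU at 31, 28.6 and 25.9 CPM in ABEmax and 19.7, 15.8 and 17.3 CPM in nCas9. CLU rose by 0.69 on the log2 scale with the RNF2 guide and by 1.42 with the HEKsite2 guide. Over all called genes, list members included, the heat shock element was in 6 of 745 promoters of genes called higher (0.805%) and in 1 of 495 of those called lower (0.202%), and the C/EBP-ATF element in 25 (3.36%) and 6 (1.21%) of the same promoters.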
